A study of Mus musculus with 12 samples.

Results

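Pnliprp1, Pnliprp2, Alb, Ambp, Ttr, Trf and Rbp4 are genes best known from the exocrine pancreas and the liver, and their signals were followed here in cells sorted from mouse colon adenomas. The members were taken as every probe set carrying 1 of these 7 gene symbols, which gave 9 probe sets of the 45141 on the array and 7 of 17097 gene symbols; all 7 genes passed the filter on low values that kept 12595 genes. The choice used measured values of these same arrays: Pnliprp1, Pnliprp2 and Alb were among the largest rises in Mex3a+ cells, and the basis for the other 4 is not stated. The differences of all 7 by Mex3a status are therefore given as a description, without a test. A working name for the set, liver and pancreas genes in Mex3a-positive cells, held for part of it. Pnliprp1, Pnliprp2 and Alb were far higher in Mex3a+ cells and Ambp was slightly higher, at signals close to the filter value, whereas Ttr was lower in Mex3a+ cells and Trf and Rbp4 showed no steady difference.

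The study compared 4 populations of adenoma cells, formed by sorting for Mex3a (positive or negative) and for Lgr5 (positive or negative), each with 1 array from each of 3 mice (MKL347, MKL358 and MKL367), 12 arrays in all. All 3 mice carry the label ki/+, which is not spelled out, and neither their age nor a treatment is given; a population of 1 mouse was 1 pool of sorted cells, 500 cells in mouse MKL358 and 2000 in the other mice, so the mouse and the cell number cannot be told apart for MKL358. Signals are on a log2 scale, on which a difference of 1 is a doubling, and signals of different probe sets are not comparable as levels. Median log2 signals of the 12 arrays were 4.86 to 4.92, arrays correlated with each other at 0.961 to 0.995, and no array was set aside. Mex3a signal was higher in the Mex3a+ cells by 0.69 ± 0.12 (SE, 6 against 6 arrays) and Lgr5 signal was higher in the Lgr5+ cells by 1.55 ± 0.14; Lgr5 signal was also 0.82 ± 0.14 higher in the Mex3a+ than in the Mex3a- cells. Of 9 colon epithelium markers (Epcam, Cdh1, keratins, Vil1, Cdx1, Cdx2 and others), all passed the filter; 8 were lower in the Mex3a+ cells, and their mean log2 signal was 9.63 to 10.06 in Mex3a+ arrays and 10.34 to 10.71 in Mex3a- arrays. Their part in the results below was not tested. Without mouse MKL347, 3 of the 9 were still called lower, and without mouse MKL367, 5.

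Mex3a encodes an RNA-binding protein known for marking a subset of intestinal stem cells, and Lgr5 encodes the R-spondin receptor by which crypt stem cells are usually recognised. Pancreatic lipase-related proteins 1 and 2, encoded by Pnliprp1 and Pnliprp2, are secreted by acinar cells of the pancreas and belong to the family of pancreatic lipase. The other 5 products circulate in plasma and are mostly made by hepatocytes: albumin (Alb) carries fatty acids and many other small molecules, Ambp encodes the precursor of alpha-1-microglobulin and bikunin, transthyretin (Ttr) carries thyroxine and holds retinol-binding protein 4 (Rbp4), the plasma carrier of retinol, and transferrin (Trf) carries iron. In mature tissues the liver genes are driven by factors such as HNF1, HNF4 and FOXA, and acinar genes by the PTF1 complex.

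The 3 members with the largest differences shared a rise in Mex3a+ cells, the contrast on which they were chosen. For this reason the 250 bases upstream of their annotated starts are shown. They come from RefSeq on mouse build GRCm38.p6, are read 5′ to 3′ on the plus strand, and span chr19:58728637-58728886 for Pnliprp1, chr19:58759473-58759722 for Pnliprp2 and chr5:90460620-90460869 for Alb. Capitals mark matches to the searched motifs.
Pnliprp1: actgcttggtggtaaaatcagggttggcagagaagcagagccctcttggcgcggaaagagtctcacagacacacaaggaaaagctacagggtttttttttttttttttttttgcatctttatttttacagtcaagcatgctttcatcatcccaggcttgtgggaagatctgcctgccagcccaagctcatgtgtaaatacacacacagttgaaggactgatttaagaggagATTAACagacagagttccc
Pnliprp2: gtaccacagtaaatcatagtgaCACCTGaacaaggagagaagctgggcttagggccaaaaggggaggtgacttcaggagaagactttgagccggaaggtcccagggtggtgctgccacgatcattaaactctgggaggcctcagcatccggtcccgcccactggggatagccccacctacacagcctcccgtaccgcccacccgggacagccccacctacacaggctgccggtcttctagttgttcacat
Alb: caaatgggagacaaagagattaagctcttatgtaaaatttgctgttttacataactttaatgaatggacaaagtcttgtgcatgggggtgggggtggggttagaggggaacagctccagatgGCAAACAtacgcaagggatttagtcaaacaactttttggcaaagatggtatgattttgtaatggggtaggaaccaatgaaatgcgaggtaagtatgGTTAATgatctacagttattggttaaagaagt
Both strands were searched for 6 motifs: CTTTGAA and CTTTGAT (TCF/LEF), GTTAAT (part of an HNF1 site), TGTTTAC and TGTTTGC (FOXA) and CACCTG (an E-box of the PTF1 kind). The Pnliprp1 window held GTTAAT on the minus strand, 19 bases before the start. The Pnliprp2 window held CACCTG on the plus strand, 228 bases before the start. The Alb window held GTTAAT on the plus strand at 32 bases and TGTTTGC on the minus strand at 128 bases. Among 32851 windows of the same length in the RefSeq table, GTTAAT occurred in 6.43%, CACCTG in 17.2%, TGTTTGC in 4.3%, TGTTTAC in 3.17%, CTTTGAA in 4.46% and CTTTGAT in 3.21%. No matched sequence was shared by all 3 windows. The Ambp window held TGTTTGC at 16 bases, and 1 of the 2 listed Rbp4 windows held CTTTGAT at 30 and TGTTTAC at 241 bases, each on the minus strand. A match describes the letters and does not show that a factor binds there.

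The lipase-related genes had the largest mean differences of the 7. For Pnliprp1, the log2 signals of mice MKL347, MKL358 and MKL367 were 9.27, 8.24 and 9.48 in Mex3a+ Lgr5+ cells and 8.73, 8.17 and 9.02 in Mex3a+ Lgr5- cells. They were 6.45, 5.42 and 7.41 in Mex3a- Lgr5+ cells and 4.90, 5.16 and 7.65 in Mex3a- Lgr5- cells. Every Mex3a+ array lay above every Mex3a- array. The mean difference was 2.65 ± 0.48 (SE, 6 against 6 arrays), a 6.29-fold higher signal, the largest upward difference (rank 1) among the 12595 genes. The lowest Pnliprp1 signal, 4.90, stood at percentile 50.6 of its array. The files carry no detection call, so whether Pnliprp1 RNA was present in those cells was not tested.

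Pnliprp2, the second lipase-related gene, followed the same order. With the brighter of its probe sets (1437438_PM_x_at), mice MKL347, MKL358 and MKL367 gave 10.29, 9.72 and 10.64 in Mex3a+ Lgr5+ cells and 9.66, 9.73 and 10.23 in Mex3a+ Lgr5- cells. The Mex3a- values were 7.42, 7.02 and 8.88 in Lgr5+ cells and 6.81, 6.85 and 8.46 in Lgr5- cells. The groups did not overlap, and the mean difference was 2.47 ± 0.35 (5.55-fold, rank 2). The suffix x of this probe set marks probes that may also hybridise to other transcripts. The other probe set (1448186_PM_at) gave 8.04, 7.39 and 8.48, then 7.43, 7.30 and 8.11 in the Mex3a+ populations. It gave 5.34, 4.84 and 6.67, then 5.0, 5.0 and 6.25 in the Mex3a- populations, a mean difference of 2.27 ± 0.33 (4.84-fold), also without overlap. Probe sequences were not used here, so cross-hybridisation between the transcripts of Pnliprp1 and Pnliprp2 was not tested.

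**Figure D1:**
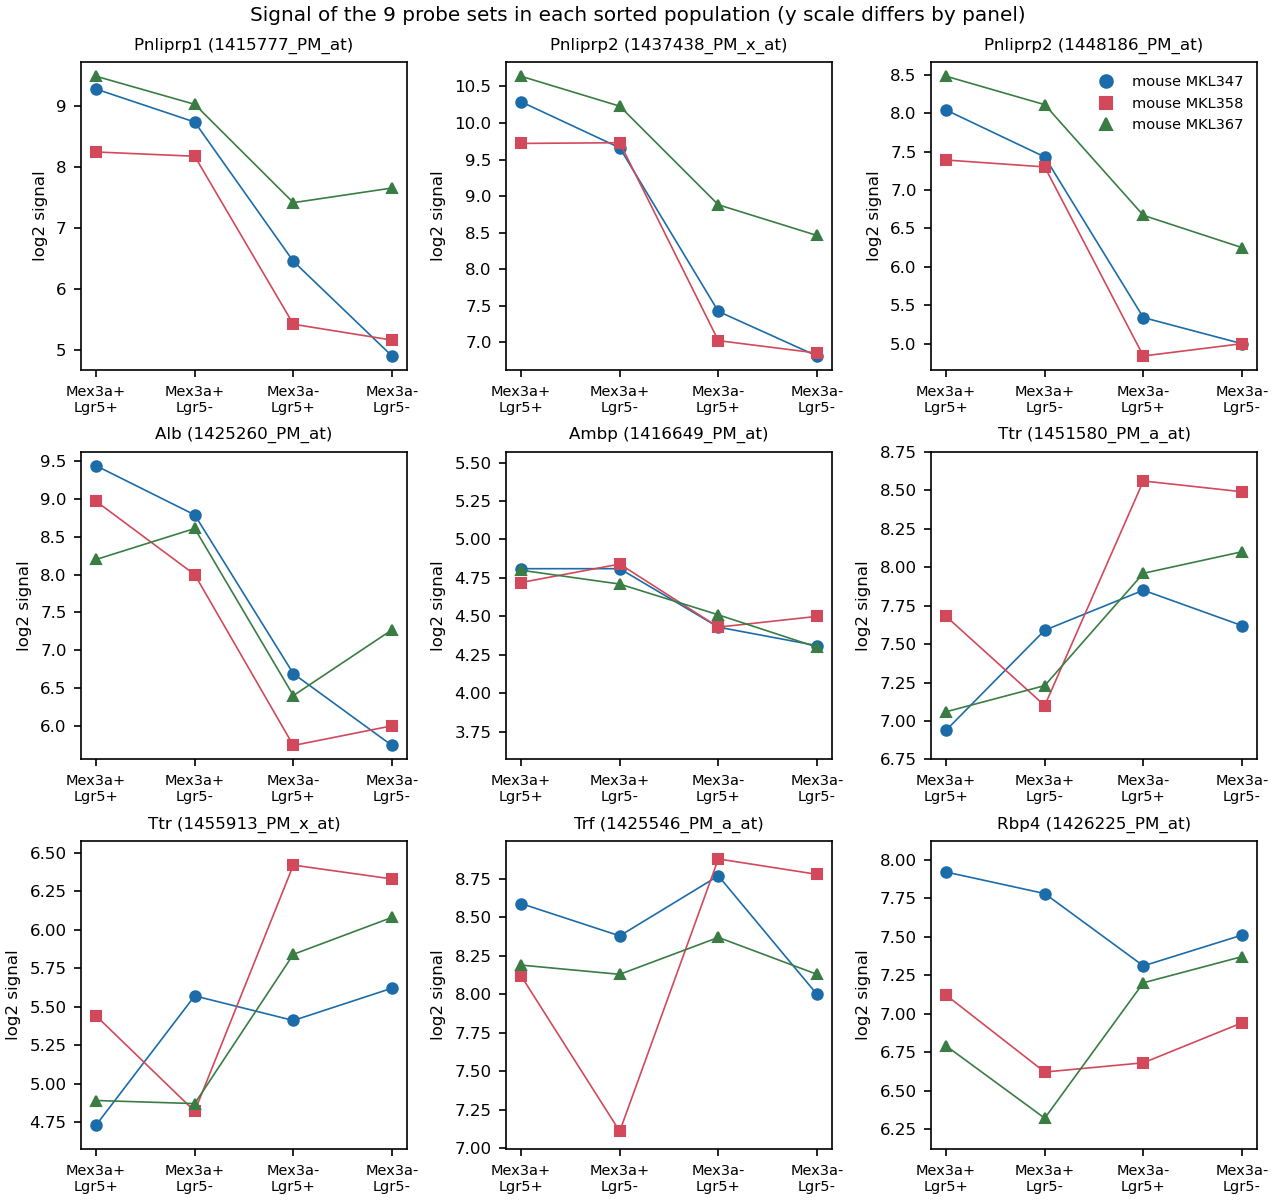
Log2 signal (y axis, with its own scale in each panel and a span of at least 2 units) of the 9 probe sets of the 7 genes in the 4 sorted populations (x axis); each point is 1 array and lines join the arrays of 1 mouse. Pnliprp1, Pnliprp2, Alb and Ambp are higher in every Mex3a+ array than in every Mex3a- array, Ttr lies lower in Mex3a+ cells, and Trf and Rbp4 cross.

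Albumin was the only 1 of the 5 plasma protein genes with a difference of that size. Its log2 signals in mice MKL347, MKL358 and MKL367 were 9.44, 8.97 and 8.20 in Mex3a+ Lgr5+ cells and 8.79, 8.00 and 8.61 in Mex3a+ Lgr5- cells. The Mex3a- cells gave 6.69, 5.74 and 6.40 with Lgr5 and 5.74, 6.0 and 7.27 without it. Again no Mex3a- array reached a Mex3a+ array, and the mean difference was 2.36 ± 0.29 (5.13-fold, rank 4). Ambp also showed no overlap, but over a narrow range: 4.81, 4.72 and 4.80, then 4.81, 4.84 and 4.71 in the Mex3a+ populations, against 4.43, 4.43 and 4.51, then 4.31, 4.50 and 4.30 in the Mex3a- populations. The mean difference was 0.37 ± 0.057 (1.29-fold, rank 911). All Ambp values lay near the filter value of 4.4 and 10 of the 12 arrays exceeded it. They stood at percentiles 38.6 to 48.5 of their arrays. RMA compresses differences at low signals, and the files carry no detection call, so whether Ambp RNA was present in Mex3a- cells was not tested.

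Transthyretin was lower in Mex3a+ cells. The brighter Ttr probe set (1451580_PM_a_at) gave 6.94, 7.68 and 7.06 in Mex3a+ Lgr5+ cells and 7.59, 7.10 and 7.23 in Mex3a+ Lgr5- cells of mice MKL347, MKL358 and MKL367. It gave 7.85, 8.56 and 7.96 in Mex3a- Lgr5+ cells and 7.62, 8.49 and 8.10 in Mex3a- Lgr5- cells. The highest Mex3a+ value, 7.68, lay just above the lowest Mex3a- value, 7.62. The mean difference was -0.83 ± 0.19, a 1.78-fold lower signal in Mex3a+ cells (rank 12212 when genes are ordered from the largest rise), and the dimmer probe set (1455913_PM_x_at), with 4.73 to 5.57 in Mex3a+ and 5.41 to 6.42 in Mex3a- arrays, gave -0.90 ± 0.21. The Mex3a+ value was the lower one in all 6 within-mouse pairs, but the difference was only -0.03 in the Lgr5- cells of mouse MKL347.

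Transferrin and retinol-binding protein 4 did not separate the populations. Trf gave 8.59, 8.12 and 8.19, then 8.38, 7.11 and 8.13 in the Mex3a+ populations, and 8.77, 8.88 and 8.37, then 8.00, 8.78 and 8.13 in the Mex3a- populations. Its mean difference was -0.40 ± 0.21, and 1 mouse carried it: the difference was -1.21 in mouse MKL358, 0.10 in MKL347 and -0.09 in MKL367, and the mean without mouse MKL358 was 0.00. Rbp4 gave 7.92, 7.12 and 6.79, then 7.78, 6.62 and 6.32 in the Mex3a+ populations, and 7.31, 6.68 and 7.20, then 7.51, 6.94 and 7.37 in the Mex3a- populations. Its mean difference was -0.07 ± 0.26, with 0.44 in mouse MKL347, 0.06 in MKL358 and -0.73 in MKL367. Without mouse MKL367 it was 0.25, and without mouse MKL347 it was -0.33.

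Over the 7 genes, 4 had all 6 Mex3a+ arrays above all 6 Mex3a- arrays, none had them all below, and 3 overlapped. Of all genes tested, 4.27% were separated upward and 9.02% downward. At an adjusted p under 0.05, calls covered 9.91% of the tested genes in the upward and 17.3% in the downward direction. Pnliprp1, Pnliprp2 and Alb were chosen on this contrast, and the basis for the other members is not stated. For this reason nothing is read from the count of the 7 against these shares. The median difference over the 12595 genes was -0.013. In RNA from pooled cells, a higher share of cells with a transcript and more of it per cell cannot be told apart.

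The size of the Mex3a difference varied by mouse. It was smallest in mouse MKL367 for each of the 3 genes with large differences: 1.72 for Pnliprp1 (3.33 in MKL347 and 2.91 in MKL358), 1.76 for Pnliprp2 (2.86 and 2.79) and 1.57 for Alb (2.90 and 2.61). The Mex3a- cells of MKL367 were the brighter ones, with mean log2 signals of 7.53 for Pnliprp1 (5.67 in MKL347 and 5.29 in MKL358), 8.67 for Pnliprp2 (7.11 and 6.93) and 6.84 for Alb (6.22 and 5.87). The Mex3a+ cells of MKL367 were also the brightest for Pnliprp1, at 9.25 (9 in MKL347 and 8.2 in MKL358). The same held for Pnliprp2, at 10.44 (9.97 and 9.72), but for Alb they were the dimmest, at 8.4 (9.12 and 8.48). In the Mex3a- Lgr5- cells of MKL367, Mex3a signal was 6.49 (5.93 in MKL347 and 5.94 in MKL358). Lgr5 signal was 6.49 there (5.78 and 5.76). In the Mex3a- Lgr5+ cells of MKL367, Mex3a signal was 6.47 (6.28 in MKL347 and 6.57 in MKL358). Lgr5 signal was 7.95 there (8.06 and 8.05), so neither was the highest of the mice. In those cells Pnliprp1, at 7.41 (6.45 and 5.42), and Pnliprp2, at 8.88 (7.42 and 7.02), were still highest in MKL367. Alb, at 6.4 (6.69 and 5.74), was not. The Mex3a difference of Mex3a itself was 0.63 in MKL367, 0.86 in MKL347 and 0.57 in MKL358. Over the 153 genes that were called and at least doubled in Mex3a+ cells, the median difference was 1.16 in MKL367, 1.20 in MKL358 and 1.56 in MKL347. Over those genes, too, MKL367 had the lowest median, though close to that of MKL358. For Pnliprp1, Pnliprp2 and Alb it stood further below both other mice. The 153 genes were picked on the same contrast and include these members. Whether the higher Mex3a and Lgr5 signals of the Mex3a- Lgr5- cells of MKL367 had a part in the differences between mice was not tested.

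**Figure D2:**
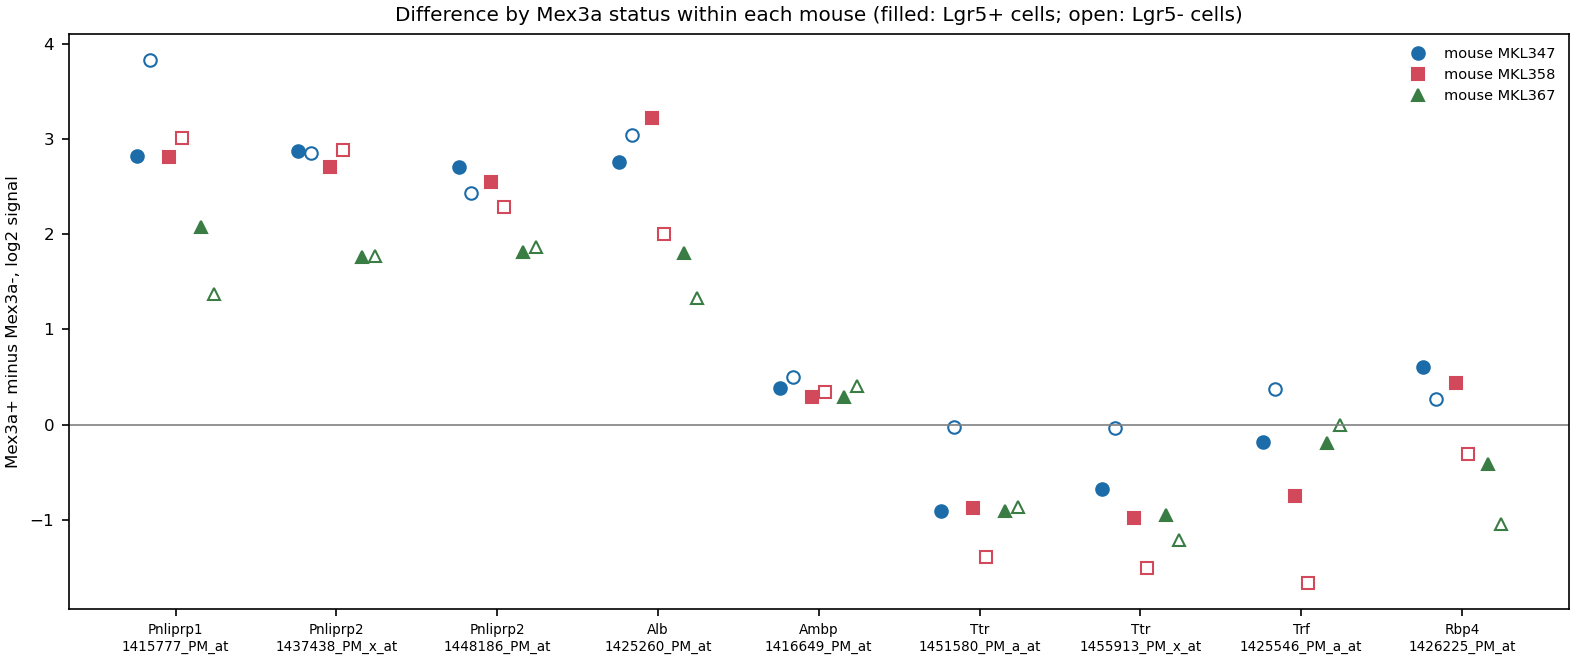
Difference in log2 signal between Mex3a+ and Mex3a- cells of the same mouse (y axis) for each of the 9 probe sets (x axis), in Lgr5+ cells (filled) and Lgr5- cells (open); the horizontal line marks no difference. For Pnliprp1, Pnliprp2 and Alb all points lie above 0 and the points of mouse MKL367 are lowest, with 1.33 to 2.07 in these genes.

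Whether the mice differed across all 4 populations was tested in a fit with population and mouse. This is not the Mex3a contrast on which Pnliprp1, Pnliprp2 and Alb were chosen, and the basis for the other members is not stated. Pnliprp1 differed between mice (limma F test, adjusted p = 0.00641), with means over 4 arrays of 8.39 in MKL367, 7.34 in MKL347 and 6.75 in MKL358. Pnliprp2 did so too (adjusted p = 0.00187), with 9.55, 8.54 and 8.33 in the same order. Rbp4 differed (adjusted p = 0.0131), but its high mouse was MKL347, with 7.63 against 6.92 in MKL367 and 6.84 in MKL358. Alb (adjusted p = 0.4), Ambp (0.855), Ttr (0.121) and Trf (0.68) did not pass. Thus 3 of 7 genes were called, beside 27.6% of all genes. These calls rest on single mice. The Pnliprp1 call was lost without MKL358 (0.141) or MKL367 (0.0517) and the Pnliprp2 call without MKL367 (0.2). The Rbp4 call was lost without MKL347 (0.763) or MKL358 (0.106), and without the MKL347 array of Mex3a+ Lgr5+ (0.0528) or Mex3a+ Lgr5- cells (0.0672). Ttr passed without the Mex3a+ Lgr5- array of MKL358 (0.00571) or of MKL347 (0.0103).

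Lgr5 status gave a second comparison, other than the Mex3a contrast on which Pnliprp1, Pnliprp2 and Alb were chosen. Whether it entered the choice of the other members is not stated. None of the 7 genes was called in the average Lgr5 effect, in which 5 genes, or 0.0397% of those tested, passed. With the mouse as a block 227 genes passed, and again none of the 7. Pnliprp1 was 0.44 higher in Lgr5+ cells (95% interval -0.60 to 1.48, adjusted p = 0.987) and Pnliprp2 was 0.37 higher (-0.40 to 1.14, adjusted p = 0.978). Per mouse, the Pnliprp1 difference was 1.04 in MKL347, 0.16 in MKL358 and 0.11 in MKL367, and that of Pnliprp2 was 0.62, 0.08 and 0.41. With the mouse as a block, the Pnliprp2 interval narrowed to 0.01 to 0.73, with an unadjusted p of 0.0428 and an adjusted p of 0.333. The Pnliprp1 interval with the block was -0.12 to 1, with an unadjusted p of 0.114 and an adjusted p of 0.5. Without the block it does not exclude a doubling with Lgr5 status, and with it the upper end stands at a doubling.

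Alb differed by 0.17 (-0.47 to 0.81, adjusted p = 0.991) between Lgr5+ and Lgr5- cells, and the mice disagreed, with 0.80 in MKL347, 0.35 in MKL358 and -0.64 in MKL367. Ambp differed by 0.04 (-0.09 to 0.16) and Ttr by -0.01 (-0.42 to 0.39). Trf was 0.40 higher in Lgr5+ cells (-0.07 to 0.87, adjusted p = 0.906, and 0.41 with the mouse as a block), and its Lgr5+ mean was higher in all 3 mice, by 0.49 in MKL347, 0.56 in MKL358 and 0.15 in MKL367. Rbp4 differed by 0.08 (-0.49 to 0.64, adjusted p = 0.994). Without the block the intervals thus stayed under 0.5 on either side of 0 for Ambp and Ttr and were wider for the other 5 genes. With the block the Rbp4 interval narrowed to -0.25 to 0.41. Those of Alb (-0.39 to 0.74) and Trf (-0.03 to 0.84) still reached beyond 0.5.

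Among Mex3a+ cells alone, the Lgr5 difference was 0.35 for Pnliprp1 (-1.12 to 1.82), 0.34 for Pnliprp2 (-0.75 to 1.44) and 0.41 for Alb (-0.50 to 1.31). No member was called there. Of all genes 0, or 0%, were called by limma without the block, 376 had an unadjusted p under 0.05, and 9 were called with the mouse as a block. Lgr5 itself was 1.09 higher in the Lgr5+ cells there and was not called without the block (limma adjusted p = 0.584), but was with it (0.0289). Its signal in Mex3a+ Lgr5- cells was still 7.03 to 7.49. The lack of calls without the block thus says little about the members. Among Mex3a- cells the differences were 0.52 for Pnliprp1 (-0.95 to 1.99), 0.40 for Pnliprp2 (-0.70 to 1.49) and -0.06 for Alb (-0.97 to 0.85). No member was called among 4 genes (0.0318%), nor with the mouse as a block.

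The Mex3a differences in the 2 Lgr5 states were close to each other for the lipase-related genes: 2.57 in Lgr5+ and 2.74 in Lgr5- cells for Pnliprp1, and 2.45 and 2.50 for Pnliprp2. Alb had 2.59 and 2.13, Ambp 0.32 and 0.42, Ttr -0.90 and -0.77, Trf -0.37 and -0.43, and Rbp4 0.21 and -0.36. The test of the gap between the states, the interaction, called no member and 0 genes of all (0%) in limma, with or without the mouse as a block; 359 genes had an unadjusted p under 0.05. Its intervals were wide, from -2.25 to 1.91 for Pnliprp1, -1.60 to 1.5 for Pnliprp2 and -0.82 to 1.75 for Alb. They were narrower for Ambp, from -0.35 to 0.15. With the mouse as a block the intervals were -1.29 to 0.95 for Pnliprp1, -0.77 to 0.66 for Pnliprp2 and -0.66 to 1.60 for Alb. A gap of a doubling between the Lgr5 states was thus not excluded for Pnliprp1 or Alb in either fit, nor for Pnliprp2 without the block, whereas the Pnliprp2 interval with the block leaves it out.

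**Figure D3:**
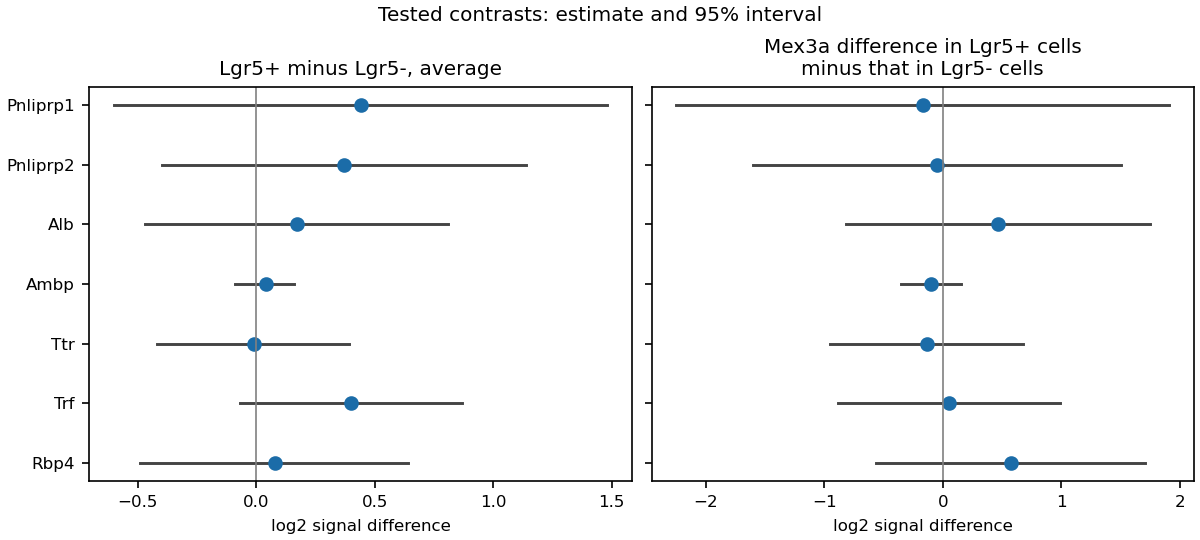
Estimates (points) and 95% intervals (lines) of the average Lgr5 difference (left) and of the interaction, the Mex3a difference in Lgr5+ cells minus that in Lgr5- cells (right), in log2 signal, for the 7 genes. Every interval includes 0; the Pnliprp1 intervals are the widest and those of Ambp the narrowest.

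Other liver and pancreas genes in the lists used here were mostly dim or did not share the rise of Pnliprp1, Pnliprp2 and Alb. Lect2, encoding a protein secreted by the liver, was in none of the lists and was 1.79 higher in Mex3a+ cells. It was named for its likeness to Alb, so no test is given for it. Of 31 other plasma protein genes of the liver on the array, 12 passed the filter. Of these, 2 were higher in Mex3a+ cells, 0 were lower and 10 did not pass, with a median difference of 0.05. Over all tested genes, 9.91% were called higher and 17.3% lower, and no list count here or below was tested against these shares. Fetub, which encodes the liver-secreted protease inhibitor fetuin-B, rose by 1.53 ± 0.25 (2.89-fold, limma adjusted p = 0.000996), from a mean log2 signal of 4.70 in Mex3a- to 6.23 in Mex3a+ cells. Afp, the fetal relative of albumin, rose by 0.26 ± 0.071 (adjusted p = 0.0187) with the brightest of its 5 probe sets, whereas the next brightest gave 0.03. Its call was lost without MKL347 (0.14), MKL358 (0.0549) or MKL367 (0.118), and it was lost too when 1 array, Mex3a+ Lgr5- of MKL367, was left out (0.0515). Cp, which encodes the copper-carrying ferroxidase ceruloplasmin, was 0.87 ± 0.30 higher (adjusted p = 0.0501, and 0.00402 with the mouse as a block). It passed without MKL358 (0.0305), without either Mex3a+ array of that mouse (0.0341 and 0.013) and without the Mex3a- Lgr5+ array of MKL367 (0.0487). Apob, the scaffold of liver and gut lipoproteins, differed by -0.26 ± 0.15 (adjusted p = 0.219). The 19 others, among them all 3 fibrinogen chains, prothrombin (F2) and plasminogen (Plg), stayed under the filter. Without MKL347 or without MKL367 1 gene of this list was called higher, and with the mouse as a block 3.

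Enzymes that define hepatocytes were lower, not called or dim. Of 25 on the array 7 passed the filter, 0 were higher, 3 were lower and 4 did not pass, with a median difference of -0.31. Hpd, an enzyme of tyrosine breakdown, fell by 1.14 ± 0.12 on the log2 scale (adjusted p = 0.000102). Arg1, the arginase of the urea cycle, fell by 1.32 ± 0.24 (adjusted p = 0.00193, and 0.0571 without MKL367). Tat, tyrosine aminotransferase, fell by 0.31 ± 0.097 (adjusted p = 0.0346), a call lost without MKL347 (0.232), without MKL367 (0.377) and without any 1 of their 8 arrays (0.0521 to 0.0843). Ass1, a urea cycle enzyme, differed by -0.26 ± 0.10 (adjusted p = 0.0814, and 0.0241 with the mouse as a block), and passed without the Mex3a+ Lgr5- array of MKL358 (0.0423) or the Mex3a- Lgr5- array of MKL347 (0.0283); a dimmer Ass1 probe set gave 0.23. With the block 5 of the 7 were lower, and without MKL367 1. The cytochromes Cyp2e1, Cyp3a11 and Cyp7a1 and the receptor subunits Asgr1 and Asgr2 were among the 18 under the filter. The mean log2 signal of the 25 genes was 4.09 to 4.25 in Mex3a+ arrays and 4.24 to 4.46 in Mex3a- arrays.

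Acinar genes of the pancreas showed the same lack of a shared rise. Of 26 on the array 15 passed the filter, 0 were higher, 3 were lower and 12 did not pass, with a median difference of 0.02. The shares over all tested genes were 9.91% higher and 17.3% lower. Klk1, tissue kallikrein, fell by 2.75 ± 0.30 (6.71-fold lower signal, adjusted p = 0.000115), although its probe sets disagreed in size, with -2.86, -2.75 and -0.18. Sycn, a protein of zymogen granules, fell by 1.60 ± 0.13 (adjusted p = 1.82e-05). Cela1, an elastase, fell by 0.19 ± 0.065 (adjusted p = 0.0443), a call lost without any 1 mouse (0.0721 to 0.234) and without any 1 of 9 arrays (0.0538 to 0.107). It held without the Mex3a- Lgr5+ array of MKL358, the Mex3a- Lgr5- array of MKL347 or the Mex3a+ Lgr5- array of MKL367. Cela3b, another elastase, was 0.20 ± 0.075 higher (adjusted p = 0.0639, and 0.035 with the mouse as a block); it passed without the Mex3a- Lgr5- array of MKL358 (0.0342) or the Mex3a+ Lgr5- array of MKL347 (0.0422). Carboxyl ester lipase (Cel), amylase (Amy2a5), Cpb1 and Ctrb1, abundant in acinar cells, were under the filter. The mean log2 signal of the 26 genes was 4.91 to 5.14 in Mex3a+ arrays and 5.03 to 5.24 in Mex3a- arrays. With the block 2 were higher and 4 lower.

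Transcription factors of liver and pancreas changed in both directions. Of 27 on the array 21 passed the filter, 2 were higher, 6 were lower and 13 did not pass, with a median difference of 0.01. All tested genes also changed in both directions, with 9.91% called higher and 17.3% lower. Prox1, a homeobox factor of early liver and pancreas, rose by 1.42 ± 0.18 (adjusted p = 0.000312), and Tbx3, a T-box factor of liver bud outgrowth, rose by 1.29 ± 0.18 (adjusted p = 0.000425). Nr1h4, the bile acid receptor FXR, fell by 1.19 ± 0.11 (adjusted p = 4.36e-05), and Hnf4a fell by 0.71 ± 0.10 (adjusted p = 0.000498). Without any 1 mouse or array, these 4 calls held. Pdx1 and Ptf1a, which define pancreatic progenitors and acinar cells, were under the filter, with mean log2 signals of 4.22 and 3.96 in Mex3a+ cells. With the block 5 were higher and 7 lower.

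Lipases, retinoid genes and iron genes are functional relatives of the members. In the fit without the block, lipase and iron genes were called in both directions and retinoid genes only lower. Of 10 other lipase genes above the filter 2 were higher and 2 lower. Liph fell by 0.64 ± 0.11 (adjusted p = 0.00177, and 0.0513 without MKL347) and Daglb, a diacylglycerol lipase, by 0.61 ± 0.13 (adjusted p = 0.00528, and 0.0657 without MKL367). Lipg, endothelial lipase, rose by 0.54 ± 0.17 (adjusted p = 0.0366) and Pla1a, a phospholipase, by 0.34 ± 0.11 (adjusted p = 0.0413). Both calls were lost without MKL347 (0.1 and 0.389) or MKL367 (0.171 and 0.0983). The Lipg call was also lost without any 1 of 7 arrays (0.0526 to 0.0787): the Mex3a+ Lgr5- array of each mouse, the Mex3a- Lgr5- arrays of MKL347 and MKL367, the Mex3a+ Lgr5+ array of MKL347 and the Mex3a- Lgr5+ array of MKL358. The Pla1a call was lost without any 1 of 9 (0.0522 to 0.101): the 4 of MKL347, all but the Mex3a- Lgr5+ array of MKL367 and both Mex3a- arrays of MKL358. Other Lipg probe sets gave -0.04 and 0.39. Without MKL347, as without MKL367, 0 lipase genes were called higher and 1 lower.

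Of 15 other retinoid genes above the filter 0 were higher and 3 lower; with the block 4 were higher and 4 lower, and without MKL347 1 was lower. The retinoic acid-making dehydrogenases Aldh1a3 and Aldh1a1 fell by 2.32 ± 0.40 and 1.03 ± 0.18 (both adjusted p = 0.00149), and the Aldh1a3 call was lost without MKL347 (0.0713). The receptor Rxra fell by 0.38 ± 0.096 (adjusted p = 0.0115), a call lost without MKL347 (0.0751), MKL358 (0.075) or MKL367 (0.0504). Of 19 other iron genes above the filter 3 were higher and 3 lower, and with the block 5 and 5; without MKL347 1 was higher and 2 lower. Lcn2, which binds iron-carrying siderophores, rose by 1.63 ± 0.25 (adjusted p = 0.000714). The ferrireductase Steap3 fell by 0.97 ± 0.15 (adjusted p = 0.000808, and 0.0505 without MKL347), and the iron exporter gene Slc40a1 fell by 0.72 ± 0.12 (adjusted p = 0.00153). Aco1, the iron-responsive aconitase, fell by 0.49 ± 0.083 (adjusted p = 0.00123); its dimmer probe set gave -0.04.

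**Figure D4:**
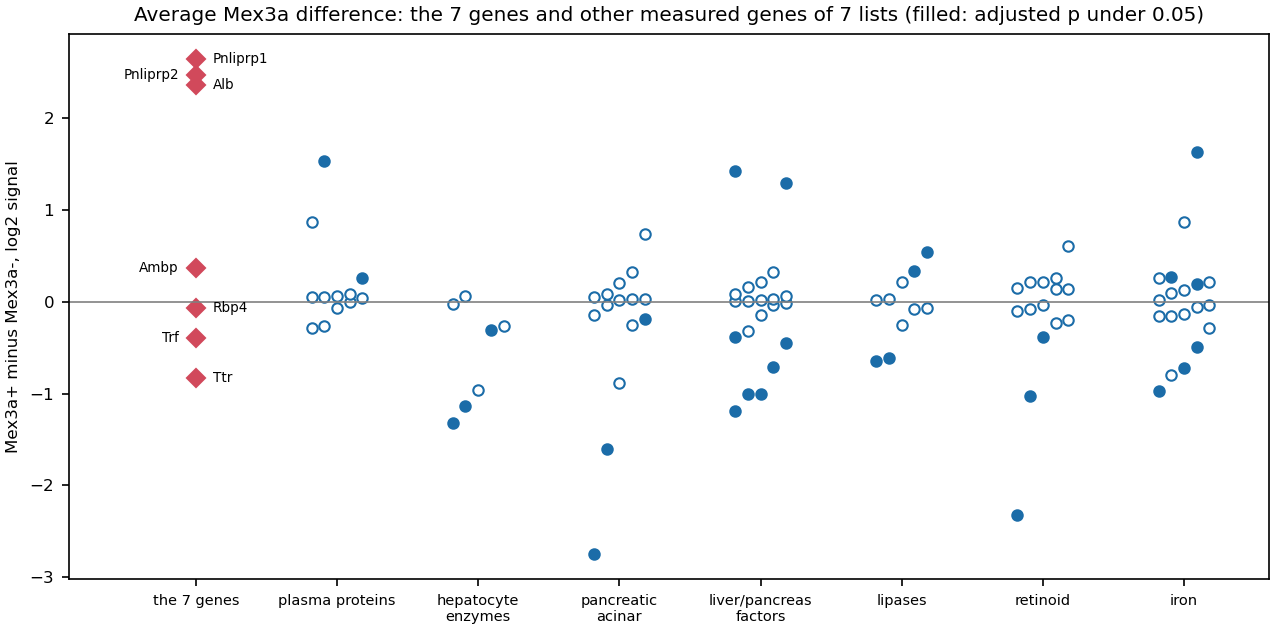
Average difference in log2 signal between Mex3a+ and Mex3a- cells (y axis). Diamonds are the 7 genes, not tested because Pnliprp1, Pnliprp2 and Alb were chosen on this contrast. Circles are the other genes above the filter in 7 lists, filled where the limma adjusted p was under 0.05. Fetub at 1.53 is the highest plasma protein circle, and Klk1 at -2.75 is the lowest acinar one.

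Markers of other secretory and ductal cells differed by list. Of 20 enteroendocrine genes above the filter 2 were higher, Cpe by 1.42 ± 0.35 (adjusted p = 0.0104, and 0.103 without MKL367) and Scg3 by 0.22 ± 0.06 (adjusted p = 0.0199, lost without MKL347, 0.141, MKL358, 0.0802, or MKL367, 0.148). Of 4 islet and 4 Paneth cell genes none was called. Of 6 duct genes, with a median difference of -0.53, 0 were higher and 3 lower, including Car2 by -1.25 ± 0.17 (adjusted p = 0.000425); without MKL347 1 was lower. Among stromal, blood, fat and glial markers, the calls were Mpo of neutrophils, higher by 0.29 ± 0.053 (adjusted p = 0.00211, and 0.0682 without MKL367), Cd14 of myeloid cells, lower (-1.02 ± 0.14, adjusted p = 0.000413), and Pparg, known from fat cells, at -0.95 ± 0.20 (adjusted p = 0.00498, and 0.0926 without MKL347). The other neutrophil markers above the filter lay lower and were not called: S100a8 at -1.14 ± 0.71 (adjusted p = 0.265), S100a9 at -0.85 ± 0.51 (0.25) and Csf3r at -0.22 ± 0.13 (0.219). S100a8 and S100a9 were called lower with the mouse as a block (0.00133 and 0.00266) and without MKL358 (0.0217 and 0.0256). The part of these markers in the results was not tested. No gene of these lists was called in the average Lgr5 effect or in the interaction.

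Other genes beside the members on the chromosome, in the order of the RefSeq table (GRCm38.p6), had no differences as large as those of Pnliprp1, Pnliprp2 and Alb. Near Rbp4, Ffar4 (-0.88) and Myof (-0.77) were called lower, as were Slco2a1 (-0.32) and Cdv3 (-0.26) near Trf. Rgs3 (-0.44) near Ambp and Cox18 (-0.28) near Alb were called lower too. Albfm1 (0.18) near Alb was called higher, as were Afp and Kif12, given below. Pnliprp1 and Pnliprp2 are adjacent. Pnlip, the pancreatic lipase gene before them, was not analysed here; Gfra1, a further neighbour on that side, differed by 0.14 ± 0.081 (adjusted p = 0.23). Hspa12a, after Pnliprp2, differed by -0.09 ± 0.08 (adjusted p = 0.463). Alb lies between Ankrd17, at 0.04 ± 0.083 (adjusted p = 0.745), and its family members Afp, at 0.26, and Afm, which was under the filter with mean log2 signals of 4.15 in Mex3a+ and 3.86 in Mex3a- cells. Ambp lies beside Kif12, a kinesin gene, which rose by 0.87 ± 0.26 (adjusted p = 0.0288). The Kif12 call was lost without MKL347 (0.223) or MKL367 (0.0981) and without 6 single arrays (0.0536 to 0.0715): the Mex3a- Lgr5+ array of MKL358, both Mex3a+ arrays of MKL367, and all but the Mex3a- Lgr5- array of MKL347.

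**Figure D5:**
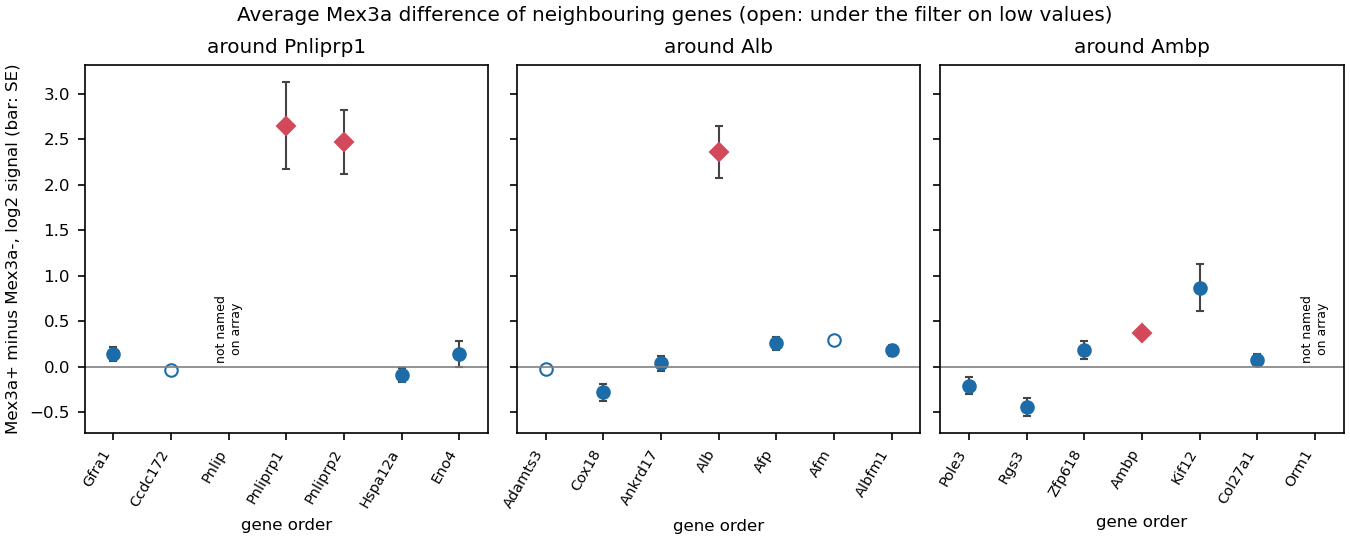
Average difference in log2 signal between Mex3a+ and Mex3a- cells (y axis; bars are SE) for genes in chromosome order (x axis, order only) around Pnliprp1, Alb and Ambp. Diamonds are members, circles other genes, and open circles genes under the filter; Pnliprp1, Pnliprp2 and Alb stand at 2.65, 2.47 and 2.36, and Kif12 at 0.87 is the highest of the other genes shown.

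The profiles over the 12 arrays, each centred on its own mean, were compared by their root mean square difference in log2 signal. Pnliprp1 and Pnliprp2 lay 0.332 apart, and Pnliprp2 was the gene nearest to Pnliprp1, whose median distance to all genes was 1.58. Erich3 (0.434) and Tesc (0.467) came next for Pnliprp1. For Pnliprp2 the nearest were Tesc (0.322), Pnliprp1 (0.332) and the Wnt inhibitor gene Apcdd1 (0.365), with a median of 1.4 over all genes. The nearest genes of Alb were Ptn, encoding the growth factor pleiotrophin (0.343), Lect2, encoding a protein secreted by the liver (0.420), and the metalloprotease gene Adam12 (0.441), with a median of 1.30. Alb stood 0.65 from Pnliprp1 and 0.60 from Pnliprp2. Since genes with a large Mex3a difference resemble each other by that difference, this likeness repeats the choice of the members and is given as a description over 12 arrays of 3 mice.

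The other members had different companions. Ttr was nearest to Trim46 (0.217), Tmem125 (0.218) and Liph (0.248), which were also lower in Mex3a+ cells, and Trf to Dnajc30 (0.276), Crls1 (0.290) and 1600012H06Rik (0.298). Rbp4 was nearest to Hoxa11 (0.225), Rnf125 (0.272) and Bsdc1 (0.279). Ambp was nearest to Vps37a (0.0641), Fzd3 (0.0719) and Rassf3 (0.0779), at a median distance of 0.265 to all genes, which reflects its narrow range. Ttr and Trf stood 0.46 apart, Ttr and Rbp4 0.71 and Trf and Rbp4 0.56.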

How the data were processed

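Expression was measured on 12 Affymetrix mouse arrays, in 4 groups of 3, after amplification of 25 ng of total RNA and labelling of 8 µg of cDNA, per the labels. RMA is the method named by the submitters' processing notes, and the authors deposited its output on a log2 scale (software and version not given in the sources used here). The platform annotation gave 1 gene symbol to 28898 of 45141 probe sets; the others were left out, and Pnlip has no probe set with a symbol of its own. The probe set with the highest mean stood for a gene, and a gene was kept if it exceeded the 40th percentile (4.4) on at least 3 arrays, which left 12595. Genes were fitted with limma 3.58.1 (R 4.3.3), 1 mean per group and an intensity trend; errors are its standard errors, tests are 2-sided, and calls have a Benjamini-Hochberg adjusted p under 0.05. The main analysis left out the mouse; a second fit took it as a block. Mouse numbers in the sample titles pair the arrays: after removal of group means, pairs from 1 mouse had correlations of 0.349 to 0.694 (18 pairs) and those from different mice and groups of -0.465 to 0.152 (36 pairs). Each replicate is 1 mouse. The number of arrays limits the precision. Scripts were tested on simulated data. Members and gene lists were chosen with earlier results of these data known. Named genes are the members, the sort markers, up to 4 genes with the smallest p by Mex3a status in each list described, and the 3 genes most like each member; chromosome neighbours and genes named as under the filter were picked after their values were seen. Promoters came from RefSeq (GRCm38.p6); Ambp, Rbp4 and the 3 printed genes were searched. Figures were drawn with matplotlib 3.10.9.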

Additional observations from a re-analysis of the deposited data

Results flagged for a closer look

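In 1 of 18 groups of 6 arrays checked (each of the 9 probe sets in Mex3a+ and in Mex3a- cells), 1 array stood apart from the others: the Trf signal of the Mex3a+ Lgr5- cells of mouse MKL358 was 7.11, and the nearest of the other Mex3a+ arrays was 8.12, a gap of 0.683 of the range of the 6 values. Chance alone gives about 1 such group in 20. That mouse had 500 sorted cells per pool, and whether this had a part was not tested. Without that array the Trf difference by Mex3a status was -0.21 in place of -0.40.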

How the results depend on the processing

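The direction of the Mex3a difference of Pnliprp1 (2.32 to 3.12), Pnliprp2 (2.28 to 2.83), Alb (2.09 to 2.76) and Ttr (-1.01 to -0.68) held over 24 alternatives, and that of Ambp (0.33 to 0.40) over 23, since the 60th percentile filter drops it. Trf ranged from -0.65 to 0 and Rbp4 from -0.33 to 0.25. With the mouse as a block (replicate block, paired arrays), calls rose from 3422 to 5192 for the average Mex3a effect, from 5 to 227 for the average Lgr5 effect, from 4 to 204 for Lgr5 in Mex3a- cells and from 0 to 9 in Mex3a+ cells. Other liver and pancreas list genes called higher in Mex3a+ cells rose from 4 to 10 with the block, and those called lower from 12 to 16. No call of a member by Lgr5 status or interaction changed with it. The average Lgr5 effect gave 8 calls with the mean of probe sets and 15 with array weights. Lgr5 in Mex3a- cells gave 7 with every probe set on its own and 13 with array weights. Lgr5 in Mex3a+ cells gave 1 without a filter, 1 with further quantile normalization and 1 with array weights. The mouse effect gave 5703 calls, in place of 3473, over every probe set on its own. Leaving out 1 mouse or array gave 1034 to 3498 calls by Mex3a status, 0 to 7 by Lgr5 status, 0 to 7 in Mex3a- and 0 to 1 in Mex3a+ cells, 0 to 1 for the interaction and 567 to 3168 for the mouse effect. The lowest by Mex3a status, 1034, was without mouse MKL347. The share of Mex3a calls that were lower was 63.5%, with 53.6% after quantile normalization and 70.8% after median centring. Differences of members that were not called changed sign under some settings. For the interaction these were Pnliprp1 (0.30 with array weights, -1.04 to 0.33 with 1 mouse or array left out), Pnliprp2 (0.05 with the mean of probe sets, 0.32 with weights, -0.60 to 0.50), Trf (-0.02 with quantile normalization, -0.15 with weights, -0.37 to 0.36) and Ttr (-0.45 to 0.24). For Lgr5 status, leaving out 1 mouse or array gave -0.14 to 0.58 for Alb, -0.02 to 0.10 for Ambp, -0.08 to 0.30 for Rbp4 and -0.18 to 0.09 for Ttr. The cause was not tested. Scanner files were not used, so no other background correction was tried, and signal over background is not known for any probe set.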
